A study of Homo sapiens with 32 samples.

Results

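*NR4A1*, *NR4A2* and *NR4A3* encode the 3 members of the NR4A family of orphan nuclear receptors, and were read in LNCaP cells given a ligand of the HER receptor family. The members were the rows of the deposited gene tables that carry these 3 symbols, which made 3 genes of the 25498 listed. LNCaP is an established prostate cancer line that depends on the androgen receptor. All 32 libraries came from LNCaP cells, in 8 groups of 4 with 2 libraries in each of 2 labelled batches. In the FBS group the cells stayed in medium with fetal bovine serum. The other 7 groups had spent 1 day in charcoal-stripped serum (CSS), which is low in steroid hormones, before treatment or harvest. The CSS group received no ligand, and the other 6 groups received 100 ng/ml of EGF or of NRG-1 for 5 minutes, 1 hour or 4 hours. EGF binds EGFR, and NRG-1 binds HER3 and HER4, which signal together with HER2. The labels call the libraries biological replicates without saying whether they came from separate cultures, so the *P* values measure the spread between these libraries.

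NR4A receptors are transcription factors that need no known natural ligand to act. Their activity is set mainly by how much receptor a cell makes, and their genes are classic immediate early genes that are switched on within an hour of growth factor, calcium or cAMP signals. *NR4A1* encodes Nur77, *NR4A2* encodes Nurr1 and *NR4A3* encodes Nor-1. All 3 proteins can bind a DNA element called the NBRE as monomers, and Nur77 and Nurr1 can also pair with the retinoid X receptors. ERK phosphorylates SRF partners, and kinases below ERK phosphorylate CREB. These factors bind short elements near the start sites of many early genes.

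The promoter sequences are shown because the members moved together at 1 hour. RefSeq windows of 300 bases, from 250 before to 50 after a start site (GRCh38.p14), were found for 2 of the 3 members, with 2 starts for *NR4A1* and 1 for *NR4A3*. *NR4A2* had no entry. The expression files were made on another build (hg19), and they do not show which start these cells used. In the sequences printed here, capitals mark the core of the cAMP response element (TGACG, or CGTCA on the other strand) and the SP1 box (GGGCGG, or CCGCCC on the other strand). The *NR4A1* window belongs to the downstream start of the 2.
NR4A3, chr9:99821635-99821934, plus strand: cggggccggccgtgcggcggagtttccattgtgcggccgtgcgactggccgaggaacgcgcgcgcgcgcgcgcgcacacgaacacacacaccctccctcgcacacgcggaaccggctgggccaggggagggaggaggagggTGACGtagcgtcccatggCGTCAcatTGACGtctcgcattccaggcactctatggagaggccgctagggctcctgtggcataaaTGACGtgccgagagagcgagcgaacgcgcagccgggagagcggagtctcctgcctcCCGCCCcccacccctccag
NR4A1, chr12:52037465-52037764, plus strand: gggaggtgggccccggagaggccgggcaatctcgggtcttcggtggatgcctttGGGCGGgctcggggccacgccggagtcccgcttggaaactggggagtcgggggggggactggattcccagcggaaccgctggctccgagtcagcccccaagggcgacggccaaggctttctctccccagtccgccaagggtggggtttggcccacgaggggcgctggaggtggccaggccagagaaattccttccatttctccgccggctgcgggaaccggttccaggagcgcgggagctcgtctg

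The *NR4A3* window held 4 matches to the CRE core, whose leftmost bases lay at -109, -91, -83 and -25 from the start site. Of 35116 windows of this length, 24.6% held at least 1 match to this core and 0.313% held 4 or more. The limit of 4 was the count seen in the *NR4A3* window itself. The windows were not matched for their share of G and C bases, which was 69.7% in the *NR4A3* window. Neither *NR4A1* window held the core, and sequence around any other start of this gene was not searched. None of the 3 windows held the full palindrome TGACGTCA (1.85% of all windows, which also contains the core), the NBRE AAAGGTCA (1.22%), a TATAAA box (11.5%) or a CArG box, the SRF element (1.29%). The SP1 box was found once in the *NR4A3* window and once in the *NR4A1* window shown, and in 45.0% of all windows. Both strands were searched, and a match describes letters in the window only.

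Total counts were between 63822654 and 92401724 per library. All 3 members passed the filter of 5 or more counts in 3 or more libraries, as did 16995 genes in all, and all 96 of their deposited values were whole counts. The 11 luminal markers were found in every library and summed to between 5662 and 8156 CPM, which are counts scaled to library size. Of the 12 markers of other cells, 7 (*PTPRC*, *CD3E*, *PECAM1*, *COL1A2*, *DCN*, *KRT5* and *TP63*) never exceeded 12 counts, *KRT14* reached at most 1.87 CPM, and *CD68*, *VWF*, *COL1A1* and *ACTA2* reached at most 16.8 CPM. Together the 12 summed to between 28.3 and 36.7 CPM in CSS and between 35.5 and 44.1 CPM 1 hour after EGF. They summed to between 39.8 and 41.6 CPM at 4 hours of EGF, all above CSS, and to between 23.1 and 28.4 CPM in FBS, whose highest library just reached the CSS range. In the other ligand groups their ranges overlapped CSS, and their part in the results was not tested. In bulk RNA, fewer cells carrying a transcript and less of it per cell cannot be told apart. A gene was called when its adjusted *P* value (edgeR quasi-likelihood test, Benjamini-Hochberg over all genes tested) was below 0.05 and its log2 fold change was beyond 1. Statements that the libraries of groups did not overlap describe the named gene only. The share of all genes that separated in the same way was not counted.

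*NR4A1* was the most abundant member in every group, and it stood far above its other levels 1 hour after either ligand. In CSS its 4 libraries read 8.48, 8.75, 8.97 and 8.26 CPM, a mean of 8.62 ± 0.312 (SD, n = 4). At 1 hour after EGF they read 603 and 606 CPM in batch 1 and 443 and 428 CPM in batch 2, a mean of 520 ± 97.7 (n = 4). At 1 hour after NRG-1 they read 256 and 248 CPM in batch 1 and 208 and 193 CPM in batch 2, a mean of 226 ± 30.6 (n = 4). The lowest of these 8 libraries lay far above the highest CSS library, and batch 1 lay above batch 2 for both ligands. In TPM, which are also scaled per transcript length, *NR4A1* went from 6.21 ± 0.560 in CSS to 387 ± 83.7 with EGF and 158 ± 31.2 with NRG-1.

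The change of *NR4A1* at 1 hour was 59.9-fold for EGF (log2 fold change 5.90, SE 0.12, edgeR adjusted *P* = 4.90e-25) and 26.1-fold for NRG-1 (log2 fold change 4.71, SE 0.11, edgeR adjusted *P* = 8.05e-23). It ranked 13 and 18, respectively, among the 16995 genes ordered from the highest fold change. Within batch 1 alone the log2 fold changes were 6.14 and 4.88, and within batch 2 alone they were 5.66 and 4.54. At 5 minutes *NR4A1* read 8.93 ± 0.696 CPM with EGF and 9.26 ± 0.399 CPM with NRG-1 (n = 4 each), ranges that overlapped CSS. From 1 to 4 hours the log2 fold change was -5.44 with EGF and -4.45 with NRG-1 (edgeR adjusted *P* = 7.35e-24 and 2.96e-22). It then read 11.2, 11.7, 13.8 and 10.9 CPM with EGF, all above CSS, and the log2 fold change against CSS of 0.47 had an adjusted *P* of 0.000283 but was under the fold limit. With NRG-1 at 4 hours it read 10.3 ± 0.623 CPM (n = 4), with a log2 fold change of 0.26 (edgeR adjusted *P* = 0.0382), also under the limit. In FBS it read 10.1 ± 1.13 CPM (n = 4), and the log2 fold change of 0.24 did not pass (edgeR adjusted *P* = 0.0522). In the order of the 8 groups, EGF at 1 hour stood above NRG-1 at 1 hour, which stood above EGF at 4 hours (edgeR adjusted *P* = 4.08e-22). Neighbours among the 6 lower groups did not differ beyond their spread, and their ranges overlapped.

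**Figure D1:**
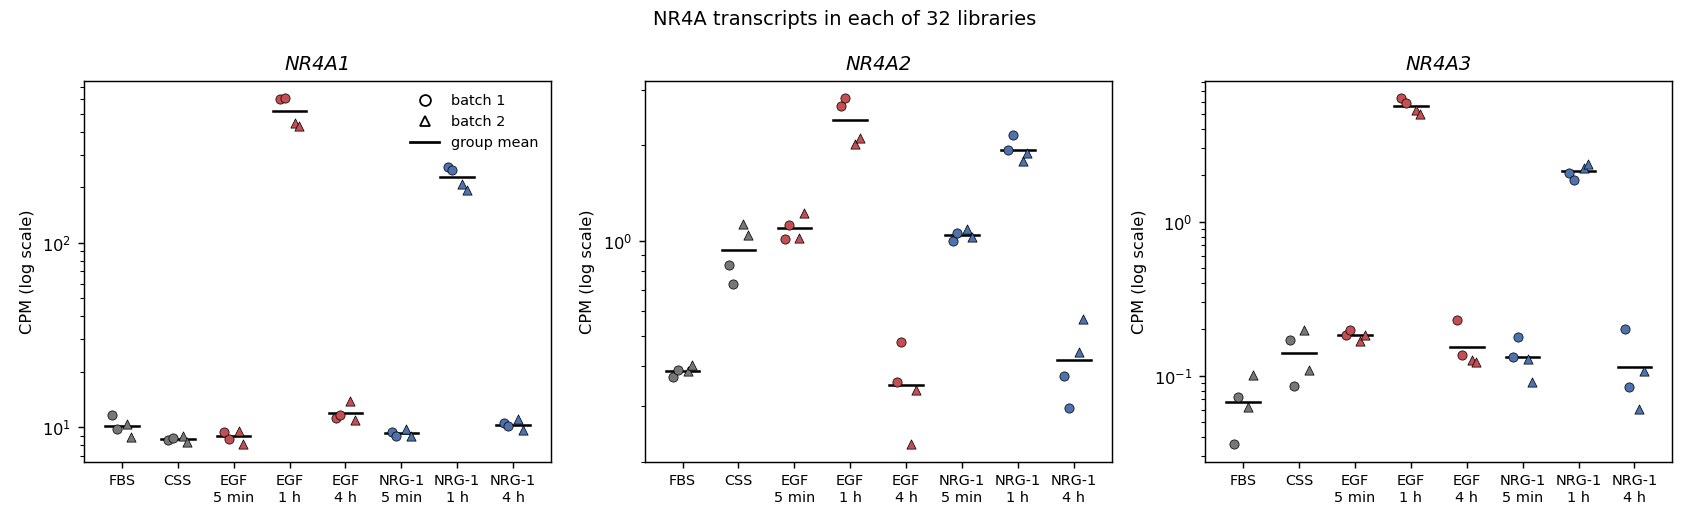
CPM of *NR4A1*, *NR4A2* and *NR4A3* in each of the 32 libraries, on log axes that differ between panels. Circles are batch 1, triangles are batch 2 and bars are means of 4 libraries. The 1-hour libraries stand above all others in each panel, at 428 to 606 CPM (EGF) and 193 to 256 CPM (NRG-1) for *NR4A1*.

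*NR4A2* moved in both directions: it rose at 1 hour and by 4 hours lay below its CSS level with either ligand, where it did not differ from FBS beyond the spread. Its CSS libraries read 0.835 and 0.730 CPM in batch 1 and 1.13 and 1.04 CPM in batch 2. At 1 hour after EGF they read 2.66, 2.82, 2.01 and 2.11 CPM, and 1 hour after NRG-1 they read 1.93, 2.16, 1.78 and 1.89 CPM. The 1-hour libraries of either ligand did not overlap CSS. At 5 minutes it read between 1.02 and 1.23 CPM with EGF and between 0.994 and 1.09 CPM with NRG-1, which overlapped CSS. The change at 1 hour was 2.55-fold for EGF (log2 fold change 1.35, SE 0.15, edgeR adjusted *P* = 9.02e-08) and 2.06-fold for NRG-1 (log2 fold change 1.04, SE 0.15, edgeR adjusted *P* = 1.37e-05).

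The *NR4A2* rise was smaller within batch 2, a difference that was not tested. In batch 2 the CSS libraries were higher, and the 1-hour EGF libraries were lower, than in batch 1. Within batch 1 alone the log2 fold changes at 1 hour were 1.81 for EGF and 1.38 for NRG-1. Within batch 2 alone they were 0.93 and 0.75, both under the fold limit (edgeR adjusted *P* = 0.00857 and 0.0489). The NRG-1 call also fell just under the limit when any of 3 libraries was left out, with values of 0.98 and 0.94 without replicate 1 or replicate 2 of CSS batch 1, and 0.99 without replicate 2 of NRG-1 batch 1.

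At 4 hours *NR4A2* read 0.356, 0.478, 0.227 and 0.337 CPM with EGF, and 0.374, 0.295, 0.443 and 0.567 CPM with NRG-1. All 8 libraries lay below the lowest CSS library. Against CSS the level was 2.67-fold lower with EGF (log2 fold change -1.41, SE 0.18, edgeR adjusted *P* = 2.20e-07) and 2.25-fold lower with NRG-1 (log2 fold change -1.17, SE 0.18, edgeR adjusted *P* = 5.30e-06). Within batch 1 the EGF value was -0.90, under the fold limit, and within batch 2 it was -1.94, and the NRG-1 values were -1.23 and -1.09. The markers of other cells stood above CSS at 4 hours of EGF and at or below the low end of CSS in FBS, as given with their sums. In FBS the 4 *NR4A2* libraries read 0.370, 0.390, 0.386 and 0.403 CPM, which was 2.43-fold lower than CSS (log2 fold change -1.28, SE 0.18, edgeR adjusted *P* = 1.09e-06). In the order of the 8 groups, NRG-1 at 4 hours, FBS and EGF at 4 hours were the 3 lowest, and neighbours among them did not differ beyond their spread (edgeR adjusted *P* = 0.673 and 0.593).

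*NR4A3* was near the floor of the assay without ligand and rose steeply at 1 hour. In CSS it had between 6 and 18 counts per library, or 0.169, 0.0859, 0.199 and 0.109 CPM. At 1 hour after EGF it had between 344 and 502 counts, or 6.31, 5.85, 5.29 and 4.98 CPM, and 1 hour after NRG-1 it read 2.08, 1.87, 2.24 and 2.37 CPM. The 3 groups did not overlap. The change was 38.4-fold for EGF (log2 fold change 5.26, SE 0.20, edgeR adjusted *P* = 1.82e-18) and 14.7-fold for NRG-1 (log2 fold change 3.88, SE 0.20, edgeR adjusted *P* = 7.76e-15). It ranked 21 and 28 from the highest fold change. At 5 minutes it read 0.183 ± 0.0119 CPM with EGF and 0.132 ± 0.0360 CPM with NRG-1 (n = 4 each), and both ranges overlapped CSS. Within the batches the log2 fold changes were 5.53 and 5.03 for EGF, and 3.90 and 3.87 for NRG-1.

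By 4 hours *NR4A3* read 0.153 ± 0.0502 CPM with EGF and 0.113 ± 0.0610 CPM with NRG-1 (n = 4 each), and its ranges overlapped CSS. From 1 to 4 hours its log2 fold change was -5.19 with EGF and -4.21 with NRG-1 (edgeR adjusted *P* = 2.14e-18 and 2.88e-15). In FBS it had between 3 and 6 counts, or 0.0358, 0.0723, 0.0623 and 0.101 CPM, and was 2.19-fold lower than CSS (log2 fold change -1.13, SE 0.35, edgeR adjusted *P* = 0.00804). The FBS and CSS ranges overlapped, and the difference was not called within batch 1 (log2 fold change -1.29, edgeR adjusted *P* = 0.0693) or batch 2 (-0.96, edgeR adjusted *P* = 0.121). It also left the call when replicate 1 of FBS batch 1 (-0.88) or replicate 1 of CSS batch 2 (-0.88) was left out. Below the 1-hour groups, the order ran from EGF at 5 minutes to FBS, and no neighbours in it differed beyond their spread.

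Counted together, 3 of 3 members were called higher 1 hour after EGF, against 1.46% of all genes tested, and 3 of 3 after NRG-1, against 0.806%. Against the 5-minute libraries, 3 of 3 were higher at 1 hour with EGF (background 1.41%) and 2 of 3 with NRG-1 (background 0.794%), where *NR4A2* had a log2 fold change of 0.90 (edgeR adjusted *P* = 0.00012). From 1 to 4 hours 3 of 3 fell with EGF (background 3.39%) and 3 of 3 with NRG-1 (background 2.27%). At 4 hours 1 of 3 was lower than CSS with EGF (background 3.70%) and 1 of 3 with NRG-1 (background 2.54%), *NR4A2* each time. In FBS 2 of 3 were lower than CSS, against 3.80% of genes. At 5 minutes edgeR called 0 of 3 with EGF (0.00588% of genes called) and 0 of 3 with NRG-1 (0%), 0 of 3 had an unadjusted *P* under 0.05 with either ligand, and DESeq2 called 0.

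**Figure D2:**
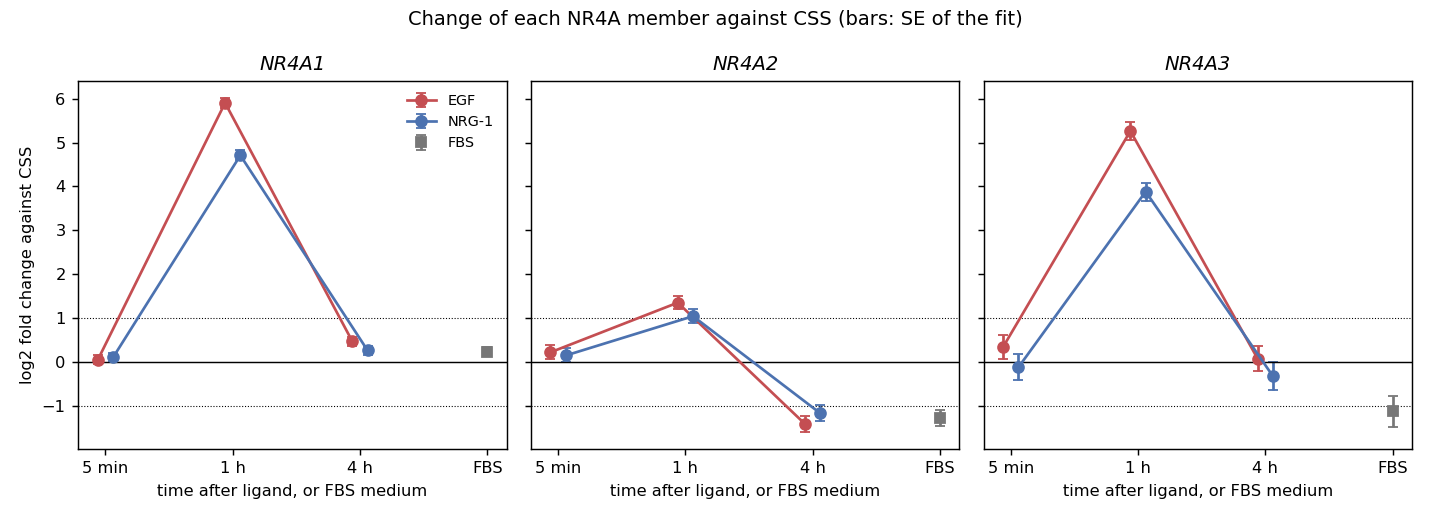
Log2 fold change of each member against CSS at 5 minutes, 1 hour and 4 hours of EGF (red) or NRG-1 (blue), and in FBS (gray square), with the SE of the edgeR fit and dotted lines at the fold limits. *NR4A1* and *NR4A3* peak at 1 hour at 5.90 and 5.26 with EGF, and *NR4A2* goes from 1.35 at 1 hour to -1.41 at 4 hours.

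The ligands were compared directly at matched dose and time. At 1 hour 2 of 3 members were called higher with EGF than with NRG-1, against 0.171% of genes. *NR4A1* was 2.29-fold higher with EGF (log2 difference 1.20, SE 0.09, edgeR adjusted *P* = 2.26e-09), and *NR4A3* was 2.60-fold higher (1.38, SE 0.14, edgeR adjusted *P* = 3.55e-07). Every EGF library lay above every NRG-1 library for both genes. Within the batches the *NR4A1* differences were 1.27 and 1.12, and the *NR4A3* differences were 1.63 and 1.16, the last with an edgeR adjusted *P* of 0.0508. *NR4A2* differed by 0.31 (SE 0.14, edgeR adjusted *P* = 0.592), and its ranges overlapped.

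At 5 minutes edgeR called 0 of 3 members between the ligands (0% of genes), 0 had an unadjusted *P* under 0.05 and DESeq2 called 0. At 4 hours edgeR called 0 of 3 (0.171% of genes), 1 had an unadjusted *P* under 0.05 (1906 of all 16995 genes did) and DESeq2 called 0. The fall from 1 to 4 hours was steeper with EGF than with NRG-1 for *NR4A1*, by 0.99 on the log2 scale (edgeR adjusted *P* = 0.000177), which was just under the fold limit. Such a difference is the ligand difference at 4 hours minus that at 1 hour, so it is not separate from the latter. For *NR4A2* and *NR4A3* this difference was -0.55 and -0.98 (edgeR adjusted *P* = 0.743 and 0.473). So edgeR called 0 of 3 members for this difference, against 0.0824% of genes, and DESeq2 called 0. All 3 had an unadjusted *P* under 0.05, as did 1049 of all 16995 genes.

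Per length, *NR4A1* made up most of the family's transcripts in every group. In CSS it held 92.3% ± 1.42 of the summed TPM of the 3 members, *NR4A2* held 7.03% ± 1.33 and *NR4A3* held 0.629% ± 0.199 (n = 4). At 1 hour after EGF the *NR4A2* share was 0.323% ± 0.0149, and 1 hour after NRG-1 it was 0.601% ± 0.0614 (n = 4 each). At 4 hours it was 2.06% ± 0.711 with EGF and 2.76% ± 0.800 with NRG-1, beside 2.61% ± 0.389 in FBS. At 1 and 4 hours of either ligand, the change of the *NR4A2* share against CSS had an exact two-sided permutation *P* of 0.0286, the smallest that 4 against 4 libraries allow, and 0.0514 after adjustment over 18 tests, so none passed. The FBS shares were not tested.

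Ratios between members were taken within each library. The log2 ratio of *NR4A2* to *NR4A1* in CPM went from -3.23 ± 0.292 in CSS to -7.75 ± 0.0674 at 1 hour of EGF and -6.86 ± 0.153 at 1 hour of NRG-1 (n = 4 each). Both changes, and the difference of -0.89 between the ligands, had an exact two-sided permutation *P* of 0.0286, the smallest possible, and 0.0476 after adjustment over 15 ratio tests that were chosen after the values were seen. That test exchanges libraries across the batches. Exchanged only within their batch, which allows 36 arrangements, each had an exact permutation *P* of 0.0556, the smallest possible, and 0.0833 after adjustment. No ratio could pass 0.05 in that form of the test, so it cannot decide. Within batch 1 the changes were -4.32 and -3.49, and within batch 2 they were -4.73 and -3.78. The log2 ratio of *NR4A3* to *NR4A1* was -6.01 ± 0.544 in CSS, -6.52 ± 0.141 at 1 hour of EGF and -6.72 ± 0.333 at 1 hour of NRG-1, and these ranges overlapped (exact permutation *P* = 0.143 and 0.114 against CSS, adjusted 0.179 and 0.171). Exchanged only within their batch, the exact permutation *P* was 0.111 (EGF) and 0.0556 (NRG-1, the smallest possible), adjusted 0.139 and 0.0833. Here too no ratio could pass 0.05, whatever its size. Within batch 1 these changes were -0.48 and -0.84, and within batch 2 they were -0.54 and -0.58.

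**Figure D3:**
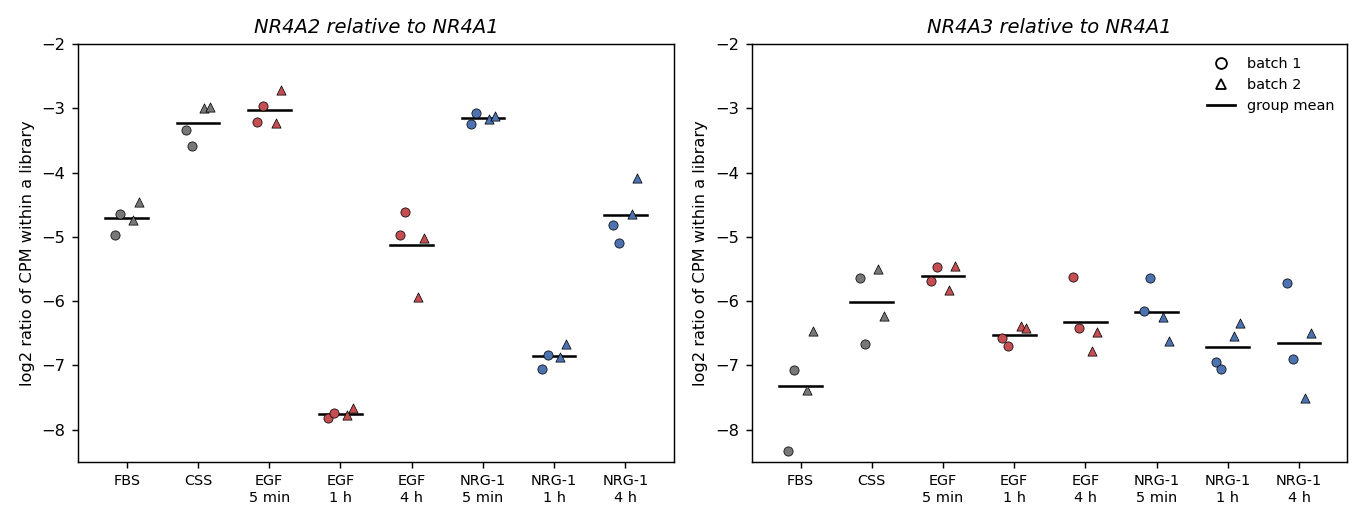
Log2 ratio of *NR4A2* to *NR4A1* (left) and of *NR4A3* to *NR4A1* (right), in CPM within each library, with symbols and bars as in the plot of CPM by library. The left ratio drops from a mean of -3.23 in CSS to -7.75 with EGF at 1 hour. The right ratio goes from a mean of -6.01 in CSS to -6.52 (EGF) and -6.72 (NRG-1) at 1 hour.

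Other nuclear receptors were read for comparison from a list of 45, of which 35 passed the filter. At 1 hour edgeR and DESeq2 called 0 of 35 with either ligand, and 4 with EGF and 8 with NRG-1 had an unadjusted *P* under 0.05. Of all 16995 genes tested, 3160 with EGF and 2889 with NRG-1 did so. The median log2 fold change of the 35 was 0.02 with EGF and -0.04 with NRG-1, beside -0.0133 and -0.00446 over all genes tested. At 4 hours 7 were called higher and 2 lower with EGF, and 5 higher and 0 lower with NRG-1, where 5.86% and 4.87% of all genes were called higher and 3.70% and 2.54% lower. The highest were *NR2F1*, which encodes COUP-TFI (log2 fold change 2.35 with EGF and 2.09 with NRG-1), *PPARG*, a regulator of lipid genes (1.77 and 1.63), and *ESR1*, the estrogen receptor α (1.74 and 1.70). Among those lower with EGF was *ESRRG*, an orphan receptor (-1.49). In FBS 3 of the 35 were called, all lower, against 3.80% of all genes: *ESR1* (-1.77), *PGR*, the progesterone receptor (-1.67), and *NR3C1*, the glucocorticoid receptor (-1.25). *NR2F1* had between 1 and 21 counts per library in CSS, and its values were 3.71 and 3.67 within batch 1 and 1.67 and 1.08 within batch 2. *ESR1* rested on about 0.0698 CPM in CSS, and its FBS call was lost within either batch and without replicate 1 of CSS batch 2 (-1.28). Within batch 2 alone the calls were also lost for *NR3C1* (-0.95) and *ESR1* at 4 hours of EGF (1.23) and NRG-1 (1.46).

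The retinoid X receptors, the partners of Nur77 and Nurr1, were not called in any comparison with CSS by edgeR or DESeq2. In these comparisons edgeR called between 0% and 9.56% of all genes. In FBS 2 of the 3 had an unadjusted edgeR *P* under 0.05, as did 9795 of all 16995 genes. Their median log2 fold change in FBS was -0.41, beside -0.00821 over all genes tested. *RXRA* read 145 ± 14.8 CPM in CSS, 155 ± 13.4 CPM 1 hour after EGF and 142 ± 23.4 CPM 1 hour after NRG-1 (n = 4 each). *RXRB* read 51.2 ± 2.39 CPM in CSS and 52.1 ± 1.07 CPM 1 hour after EGF. At 4 hours of EGF it read 41.1 ± 1.60 CPM, with a log2 fold change of -0.32 (edgeR adjusted *P* = 1.23e-05), under the fold limit. *RXRG* was at or below 0.0885 CPM on average in CSS and in the 1-hour and 4-hour groups.

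**Figure D4:**
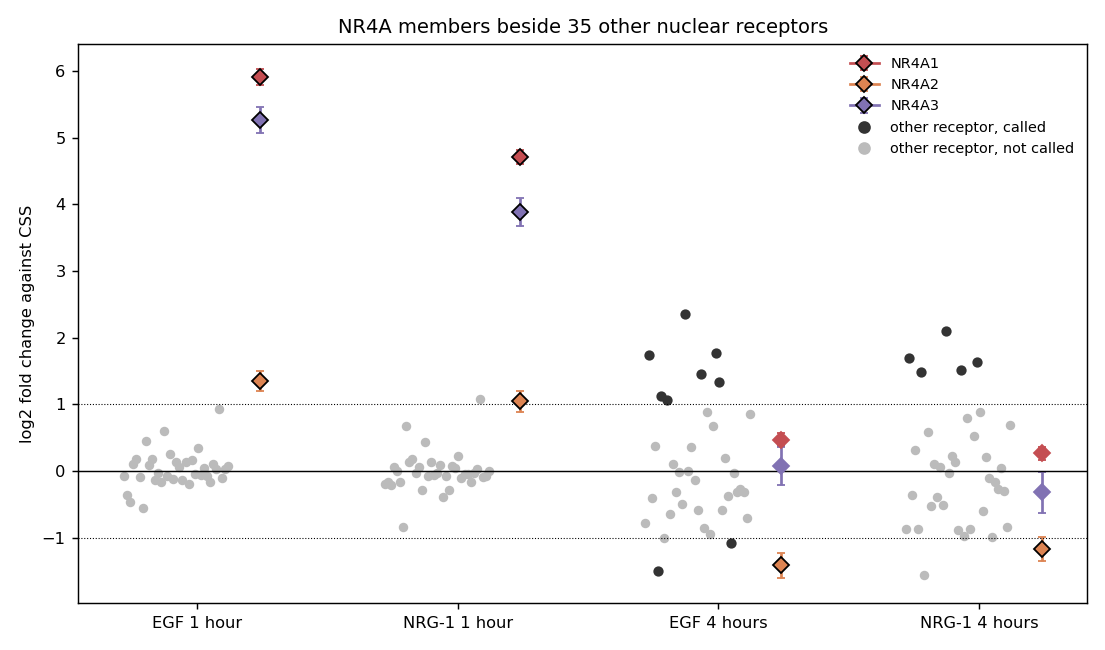
Log2 fold change against CSS of the 35 other nuclear receptors tested (circles, black where called) and of the 3 NR4A members (diamonds with SE, outlined in black where called), at 1 and 4 hours of each ligand. At 1 hour only the diamonds are called, and at 4 hours 9 (EGF) and 5 (NRG-1) of the other receptors are.

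Of 24 kinases, factors and cofactors that act on NR4A promoters, all tested, 1 was called higher at 1 hour with each ligand, against 1.46% of all genes with EGF and 0.806% with NRG-1. This was *SRF*, which encodes the serum response factor, at 55.7 ± 2.88 CPM in CSS, 247 ± 27.3 CPM with EGF and 170 ± 18.3 CPM with NRG-1 (n = 4 each; log2 fold changes 2.15 and 1.61, edgeR adjusted *P* = 5.49e-17 and 5.33e-14). The median of the 24 was 0.04 with EGF and -0.0011 with NRG-1. At 4 hours of EGF 1 of the 24 was called higher, a share below the 5.86% of all genes: *RPS6KA3*, which encodes the kinase RSK2 (log2 fold change 1.15, edgeR adjusted *P* = 2.11e-10), and within batch 2 alone it was under the fold limit (0.94).

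Among 12 other early genes with CREB sites, each ligand was followed by 4 calls of higher expression at 1 hour, against 1.46% of all genes with EGF and 0.806% with NRG-1, and their median log2 fold change was 0.41 with EGF and 0.29 with NRG-1. *FOS*, an AP-1 subunit, went from 0.619 ± 0.0736 CPM in CSS to 140 ± 37.0 CPM with EGF and 145 ± 5.75 CPM with NRG-1 (n = 4 each). *ATF3*, a stress-induced bZIP factor, went from 55.0 ± 3.62 CPM to 674 ± 135 and 326 ± 42.1 CPM. *RGS2*, a brake on G protein signaling, went from 0.495 ± 0.0465 CPM to 3.92 ± 0.201 and 1.64 ± 0.482 CPM. The other gene called was *PER1*, a clock gene named after its values were seen (log2 fold changes 1.61 and 1.37). At 1 hour 2 of the 12 were called higher with EGF than with NRG-1, against 0.171% of all genes, *RGS2* (log2 difference 1.27) and *ATF3* (1.05). Within batch 2 alone neither was called (1.09 and 0.79). The *ATF3* difference also went under the fold limit without replicate 1 (0.95) or replicate 2 (0.98) of EGF batch 1 or replicate 1 of NRG-1 batch 2 (0.97). *FOS* still stood at 33.2 ± 1.76 CPM with EGF and 15.9 ± 7.50 CPM with NRG-1 at 4 hours. Its log2 fold changes against CSS were then 5.75 and 4.64, where those of *NR4A1* were 0.47 and 0.26.

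Of 30 genes reported as NR4A targets in other tissues, 18 passed the filter. At 1 hour 3 were called higher and 2 lower with EGF, and 2 higher and 2 lower with NRG-1, where 1.46% and 0.806% of all genes were called higher and 0.265% and 0.182% lower. The median of the 18 was -0.03 with EGF and 0.04 with NRG-1. *SLC2A4*, the insulin-responsive glucose transporter GLUT4, went from 3.56 ± 0.191 CPM in CSS to 10.4 ± 0.653 with EGF and 8.08 ± 0.521 with NRG-1 (n = 4 each). *CTGF*, a matricellular growth factor, read 7.99 ± 0.558 CPM with EGF and 2.45 ± 1.53 CPM with NRG-1, and had at most 3 counts in any CSS library. *ID4*, a repressor of basic helix-loop-helix factors, was called with EGF (log2 fold change 1.13, edgeR adjusted *P* = 0.0148) at 0.325 ± 0.143 CPM, a call lost within either batch (1.53 and 0.95), without either library of CSS batch 1 (0.98 and 1.00) and without replicate 1 of EGF batch 2 (0.83). The genes that fell were *NFKBIA* (-1.31 and -1.06) and *TNFAIP3* (-1.13 and -1.17), which both encode inhibitors of NF-κB signaling. The *NFKBIA* value for NRG-1 was -0.97 without replicate 1 of NRG-1 batch 1 and -0.99 within batch 2 alone, where the *TNFAIP3* values were -0.94 and -0.90, none of which was called.

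At 4 hours 2 of the 18 target genes were called higher and 1 lower with EGF, and 1 higher and 1 lower with NRG-1. Of all genes, 5.86% were called higher and 3.70% lower with EGF, and 4.87% and 2.54% with NRG-1. *ID4* was higher with both ligands (log2 fold changes 1.31 and 1.62), and *PPARGC1A*, a coactivator of mitochondrial genes, was lower (-1.02 and -2.02) from 0.262 ± 0.105 CPM in CSS. *CYP19A1*, which encodes aromatase, was called with EGF at 0.0800 ± 0.0467 CPM against 0.0174 ± 0.0201 CPM in CSS, a level of a few counts. That call was lost without replicate 1 of CSS batch 1 (1.59) or replicate 2 of EGF batch 1 (1.64). The *PPARGC1A* call with EGF was lost without either library of CSS batch 2 (-0.97 and -0.98) or replicate 2 of EGF batch 2 (-0.73). Within a single batch, calls were lost in batch 2 for *CYP19A1* (0.27) and for *ID4* with EGF (0.65), and in batch 1 for *PPARGC1A* with EGF (-0.58) and NRG-1 (-1.45). In FBS 2 of the 18 were called higher, against 4.91% of all genes, *E2F1* (log2 fold change 1.62) and *BIRC5* (1.63), which are both tied to cell division.

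The genes whose pattern was most like each member were found by Pearson correlation of log2 CPM over the 32 libraries, after batch means were removed, among 12018 genes. The libraries share groups and a common 1-hour response, so these values are a description. For *NR4A1* the 5 closest were *FOSB* (r = 0.99), *RASD1* (0.99), *SRF* (0.99), *CYR61* (0.98) and *DCUN1D3* (0.98). For *NR4A3* they were *TRIB1* (0.98), *RASD1* (0.97), *FOSB* (0.97), *PDP1* (0.97) and *DNAJB4* (0.97). For *NR4A2* they were *MORC3* (0.97), *SLC30A10* (0.96), *IP6K2* (0.96), *SRSF8* (0.95) and *CCNG2* (0.95), none of which was among the closest of the other members. Between the members, r was 0.97 for *NR4A1* and *NR4A3*, 0.81 for *NR4A2* and *NR4A3*, and 0.73 for *NR4A1* and *NR4A2*.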

How the data were processed

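RNA from LNCaP cells was sequenced as stranded polyA libraries. Per the study's methods and the submitters' processing notes, the authors trimmed reads with Trimmomatic (v0.36) and quantified genes with RSEM around STAR (v2.7.0f) on hg19. The annotation is not given in the sources used here. The authors deposited a table of expected counts per gene, which can be fractional where reads map to several genes. They also deposited a table of TPM, which is scaled per transcript length and to each library's total, so it keeps no depth.

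After rounding to whole counts, edgeR (v4.0.16, R v4.3.3) was fitted to all 32 libraries with TMM normalization and with group and batch as terms. A gene needed 5 or more counts in 3 or more libraries. CPM values are TMM-scaled, and the SE is the log2 fold change divided by the square root of the quasi-likelihood F. *P* values were adjusted by Benjamini-Hochberg over all 16995 genes within each comparison. The thresholds, filter and terms follow the study's methods, which used DESeq2. Alternatives were DESeq2 (v1.42.0), its size factors in edgeR, no filter, no batch term, a fit of each batch on its own, a replicate block, a fit of the compared groups only, limma (v3.58.1) on log2(TPM + 1) with and without a filter or log2(TPM + 0.1), and each library left out. Shares and ratios were tested by exact two-sided permutation (SciPy v1.17.1), ratios also within batches. The fits were tested on simulated counts.

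Same-numbered libraries of the same batch were compared in pairs: deviations from group means correlated at 0.13 to 0.57 in all 112 pairs. Once batch was removed they correlated at -0.06 to 0.43, with 54 over 0.1. With 2 libraries per group and batch, the deviations then mirror each other, so each of these values is counted under both replicate numbers. The shared batch is in the labels, and a pairing by replicate number is not. No pair of libraries in a group agreed within sampling noise. Promoter windows were taken from RefSeq. Besides the members, up to 3 called genes with the largest change in each direction were named per list, and the 5 genes most like each member. The values of 1 listed gene are not reported here. The members and lists were chosen with earlier results of these data known.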

Additional observations from a re-analysis of the deposited data

Results flagged for a closer look

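*NR4A1* and *NR4A3* differed between the ligands at 1 hour, with log2 differences of 1.20 and 1.38 (EGF over NRG-1, edgeR quasi-likelihood test), and every EGF library was above every NRG-1 library (4 of 4 against 4 of 4). The change of *NR4A1* from 1 to 4 hours differed between the ligands, with a log2 difference of -0.99, steeper with EGF. This value is the ligand difference at 4 hours (0.21, edgeR adjusted *P* = 0.441) minus that at 1 hour, so it is not a separate result. Within batch 1 alone it was -1.11, and within batch 2 alone it was -0.86 and did not pass (edgeR adjusted *P* = 0.726).

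Among the 24 sets of 4 libraries (3 members in 8 groups), 1 had a library standing apart by Dixon's test: *NR4A3* in replicate 1 of batch 1 of EGF at 4 hours, at 0.228 CPM, where the other 3 libraries read 0.137, 0.126 and 0.122 CPM. Chance alone would flag about 1.2 of 24 sets. That library had 16 counts of *NR4A3*.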

How the results depend on the processing

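*NR4A1* and *NR4A3* at 1 hour of EGF, and *NR4A1* at 1 hour of NRG-1, were called under all 19 alternatives. The replicate block changed no call of a member (with it, *NR4A1*, *NR4A2* and *NR4A3* changed by 5.91, 1.35 and 5.27 at 1 hour of EGF, and *NR4A2* by 1.04 with NRG-1). Over members and comparisons, 445 values kept their direction and side of the threshold under other settings, while 36 lost a call, 6 gained one and 8 reversed. With 1 library left out 366 kept both, 5 lost a call, 7 gained one and 6 reversed.

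With limma on log2(TPM + 1), with or without a filter, folds of low genes shrank under the fold limit by construction. *NR4A2* was then 0.61 at 1 hour and -0.33 at 4 hours of EGF, 0.40 and -0.30 of NRG-1, -0.33 in FBS, 0.53 for EGF at 1 hour against 5 minutes, and -0.95 (EGF) and -0.70 (NRG-1) from 1 to 4 hours. *NR4A3* was 0.65 at 1 hour of NRG-1 against CSS and 0.65 against 5 minutes, -0.66 from 1 to 4 hours, -0.0349 in FBS, and 0.76 for EGF against NRG-1 at 1 hour. With log2(TPM + 0.1), *NR4A2* was 0.88 at 1 hour and -0.95 at 4 hours of NRG-1, and *NR4A3* was -0.27 in FBS and -1.22 for the difference in the change from 1 to 4 hours, now called. The *NR4A1* difference in that change passed the fold limit with only the groups compared (-1.01), batch 1 alone (-1.11), log2(TPM + 1) (-1.09) and log2(TPM + 0.1) (-1.07), and ran from -1.10 to -0.93 with 1 library left out.

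Within a single batch, *NR4A2* lost its call in batch 2 at 1 hour of EGF against CSS (0.93) and against 5 minutes (0.89) and at 1 hour of NRG-1 (0.75), and in batch 1 at 4 hours of EGF (-0.90). *NR4A3* lost its call in FBS in both batches (-1.29 and -0.96) and between the ligands in batch 2 (1.16). The cause was not tested. With 1 library left out, the *NR4A2* change at 1 hour of NRG-1 ran from 0.94 to 1.15, and *NR4A3* in FBS from -1.35 to -0.88.

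Reversals touched values that were not called. *NR4A3* at 4 hours of EGF was -0.30 in batch 2 and ran from -0.15 to 0.32 with 1 library left out. *NR4A3* at 5 minutes of NRG-1 was 0.24 in batch 1, 3.33e-05 with log2(TPM + 1), 0.0018 with log2(TPM + 0.1), and from -0.29 to 0.12 with 1 library left out. *NR4A3* at 4 hours of NRG-1 was 0.13 in batch 1. *NR4A2* was -0.053 at 5 minutes of NRG-1 in batch 2, and 0.33 between the ligands at 4 hours in batch 1. *NR4A1* at 5 minutes of EGF ran from -0.0082 to 0.092 with 1 library left out. The *NR4A3* share of family TPM at 4 hours, EGF against NRG-1, ran from -0.0236 to 0.201 percentage points with 1 library left out. That leaves 3 against 4 libraries, which cannot reach 0.05. Ratios of TPM, chosen after seeing the data, changed no ratio result. Exchanging libraries only within their batch, also added after seeing the data, cannot reach 0.05 and ended the pass of 9 ratio differences: -4.53, -3.63, -1.91, -1.44 and -0.89 for *NR4A2* to *NR4A1*, and -4.02, -2.93, -1.60 and -1.09 for *NR4A2* to *NR4A3*.

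The number of genes called moved more: 293 at 1 hour of EGF became 146 with limma on log2(TPM + 1), and between the ligands at 1 hour 29 became 4 in batch 2 alone and 43 in batch 1 alone. For the called genes of the lists, 64 values lost the call under another setting and 485 kept it, 18 lost it and 406 kept it with 1 library left out, and none reversed. At 3 to 18 counts per library, *NR4A3* without ligand limits what could be seen of a fall below CSS.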
